A study of Mus musculus with 9 samples.

Results

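A stem cell culture and an enterocyte culture of intestinal epithelium from the same animal were compared, once in each of 2 mice, and all genes with a signal were followed from the one culture to the other. The cultures are named WENRC and ENRI. The labels give duodenum as the tissue, intestinal stem cell as the cell type of WENRC and enterocyte as that of ENRI, and do not spell out either name. Each culture has 1 library from mouse 1 and 1 from mouse 2, so the 4 libraries form 2 pairs. The labels give no strain, genotype, age or dose for either animal. Transcription was measured by GRO-seq (global run-on sequencing), in which nuclei are allowed to extend the RNA that engaged polymerase is already making, so that the reads report ongoing transcription rather than stored RNA. The genes described are the 22374 of 24505 in the deposited table that are not listed at 0 in all 6 libraries of the series, the other 2 being from another culture, RANKL. Values are the authors' normalized log2 values over whole genes. The scale compresses low values, so differences of low genes are understated. Their spread between libraries is compressed with them, so a test of a low gene is not simply cautious. The depth of the libraries is unknown.

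The lining of the small intestine renews itself from crypts. At the crypt base, Wnt signals keep stem cells dividing, and their daughters move up onto the villus, leave the cell cycle and become mostly absorptive enterocytes, which carry a brush border of digestive enzymes and transporters and export dietary fat as lipoproteins. Goblet, Paneth, enteroendocrine and tuft cells are the secretory and sensory minority. The markers of both labelled cell types followed the labels in both mice. Summed over the 10 absorptive enterocyte markers (deposited values taken out of the log2 scale), the level was 62600 and 112000 in ENRI of mouse 1 and mouse 2, and 13200 and 7420 in WENRC. Over the 7 stem cell markers it was 2350 and 2740 in ENRI and 14200 and 15600 in WENRC. Enterocyte transcription was thus still well above 0 in WENRC, and stem cell markers were not absent in ENRI. These are bulk libraries, in which fewer cells of a type and less RNA per cell cannot be told apart. Whether the culture vessels of 1 mouse were split before or after growth is not stated. The 2 mice also differ in the date within their library names, so animal and date cannot be told apart. Sex-linked genes, given below, read as male in mouse 1 and female in mouse 2. Sex is therefore part of the same difference.

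A difference is given throughout as WENRC minus ENRI within 1 mouse, in log2 units. It was tested for 16460 genes with a value of at least log2 of 10 in at least 2 of the 4 libraries, which is 73.6% of the genes with a signal. The differences of the 2 mice share no library, and across the tested genes their Pearson correlation was 0.696, a description over genes, which are not independent replicates. The differences were wider in mouse 2, with an SD over genes of 0.905, than in mouse 1, with 0.607. Both mice showed a difference of at least 1 in the same direction for 907 genes, 5.51% of those tested. Of these, 211 (1.28%) were higher and 696 (4.23%) lower in WENRC. They are called genes that differ alike below, a description with no test; the gene just inside this threshold had a smaller difference of 1.001 and the one just outside had 0.999. Testing with limma (two-sided), with the mouse as a block and Benjamini-Hochberg adjustment over all 16460 genes, gave 121 genes with an adjusted p under 0.05, or 0.735%. Of these, 18 (0.109%) rose and 103 (0.626%) fell in WENRC, and all 121 were among the 907. At shares of 0.735% and 5.51%, a short list below with no gene past the test, or none that differs alike, does not stand out. Adjusted p-values of these genes lay between 0.0222 and 0.05, so none was far from the threshold. The fit has 1 residual degree of freedom, and without the block no gene was called, although 4073 had an unadjusted limma p under 0.05. By the adjusted p of the authors' deposited table, 2076 of the tested genes (12.6%) are called between these cultures, 546 higher (3.32%) and 1530 lower (9.3%) in WENRC. That table holds 887 of the 907 genes in the same direction, which is 97.8% of the genes that differ alike and 42.7% of the authors' calls.

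The count changed with the libraries and the block. Leaving out 1 library also removes the block, which alone takes the count to 0, and leaves 1 culture with a single library, so that the pair of the other culture gives all the spread. In such fits the count was 0 without WENRC of mouse 1 and 0 without WENRC of mouse 2, where 1684 and 1396 genes had an unadjusted limma p under 0.05. It was 4554 without ENRI of mouse 1 and 1407 without ENRI of mouse 2. When each library was recentred on its upper quartile, 555 genes were called, 153 higher (27.6%) and 402 lower, against 14.9% higher as reported here. That recentring moves the median difference of all tested genes from -0.01 to 0.10.

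**Figure D1:**
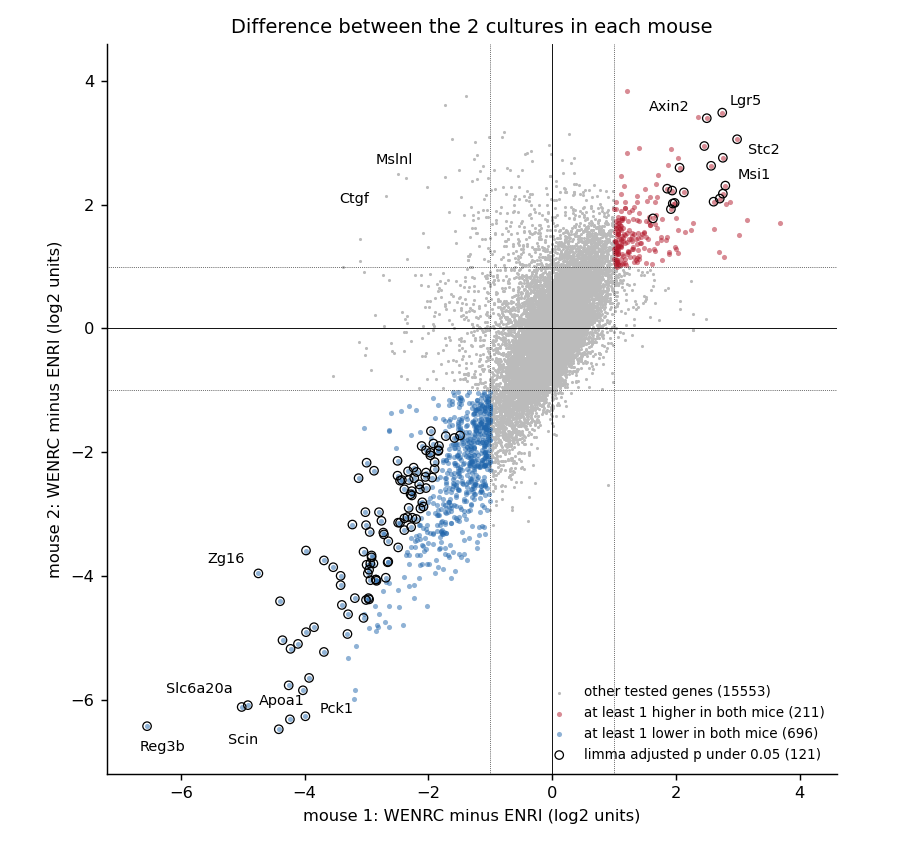
Each point is 1 of the 16460 tested genes, with WENRC minus ENRI in mouse 1 on the horizontal axis and in mouse 2 on the vertical axis, both in log2 units; dotted lines mark 1 and -1. The 211 red and 696 blue points differ alike in both mice, rings mark the 121 genes with a limma adjusted p under 0.05, and the sparse group at the upper left, with Ctgf and Mslnl, differs in opposite directions.

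Among the falls, Reg3b led. Reg3b encodes a secreted C-type lectin that kills bacteria at the epithelial surface. It had 9.81 and 10.27 in ENRI of mouse 1 and mouse 2 and 3.26 and 3.84 in WENRC, so the cultures did not overlap. The mean difference was -6.49 (SE 0.21, limma adjusted p 0.0222), or 89.9-fold on the deposited scale. Slc6a20a, an imino acid (proline) carrier of the brush border, had 11.44 and 12.84 in ENRI and 6.42 and 6.73 in WENRC. Apoa1, the main protein of high-density lipoprotein, had 12.08 and 12.66 in ENRI and 7.16 and 6.57 in WENRC. Both lost more in mouse 2 than in mouse 1, with differences of -5.02 and -6.12 for Slc6a20a (mean -5.57, SE 0.32) and of -4.92 and -6.09 for Apoa1 (mean -5.50, SE 0.33), each at a limma adjusted p of 0.036. Scin, a calcium-dependent actin-severing protein, fell by 5.45 (11.78 and 12.79 in ENRI, 7.36 and 6.31 in WENRC). Pck1, the cytosolic enzyme that commits oxaloacetate to glucose synthesis, fell by 5.13, from 8.05 and 9.98 to 4.06 and 3.71, at an adjusted p of 0.05 when rounded. The remaining leading falls were Reg1 (-5.28), Apoa4 (-5.02), the peptidase Mme (-4.94), the sulphate carrier Slc13a1 (-4.79), the sugar-sensing Slc5a4b (-4.71), Cyp2c38 (-4.70) and the retinal dehydrogenase Aldh1a1 (-4.60). In each of these 12 genes both ENRI values lay above both WENRC values. The choice of the largest called falls makes this likely, so it adds no support.

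The rises were smaller. Lgr5, the R-spondin receptor that marks crypt base stem cells, had 8.89 and 8.51 in ENRI of mouse 1 and mouse 2 and 11.64 and 11.99 in WENRC. It rose by a mean of 3.12 (SE 0.27, limma adjusted p 0.0447), or 8.68-fold on this scale, and it overlaps A930009A15Rik, from which its reads may not be separable. Stc2, a secreted glycoprotein switched on in nutrient and endoplasmic reticulum stress, had 7.53 and 7.18 in ENRI and 10.52 and 10.23 in WENRC. Its differences of 2.99 and 3.06 were almost the same in the 2 mice (mean 3.02, SE 0.20, limma adjusted p 0.036). Axin2, the classical Wnt-induced inhibitor of Wnt signalling, had 9.14 and 8.62 in ENRI and 11.64 and 12.02 in WENRC, a mean difference of 2.95. The RNA-binding protein Msi1, a progenitor marker, rose by 2.76 in each mouse from 5.87 and 6.36. Further rises were the kinase Hunk (2.70), Chac1 (2.60), which degrades glutathione, 4930474M22Rik (2.55), which overlaps the stem cell gene Smoc2, Moxd1 (2.47), the chromatin protein Hmga2 (2.41), Izumo1 (2.33), Greb1 (2.33) and the leucine carrier Slc7a5 (2.17). Izumo1, known for its part in sperm-egg fusion, had values of only 3.83 and 3.98 in ENRI and 5.89 and 6.58 in WENRC. Hmga2 overlaps 9230105E05Rik and Mir763. No library of one culture overlapped the other culture in any of these 12 genes, which again follows largely from how they were chosen.

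**Figure D2:**
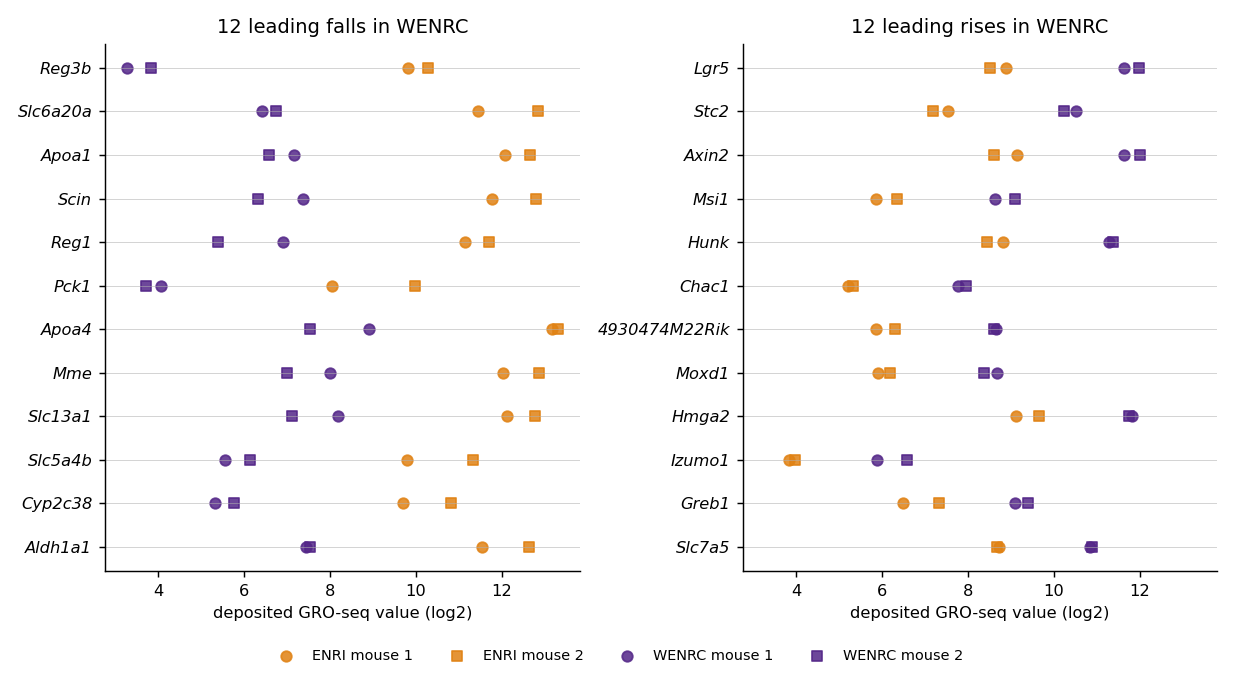
Deposited GRO-seq value (log2, horizontal axis) in each of the 4 libraries for the 12 genes with the largest fall (left) and the 12 with the largest rise (right) among genes with a limma adjusted p under 0.05; circles are mouse 1 and squares mouse 2. Orange ENRI and purple WENRC points do not overlap in any gene, which the choice of these genes makes likely. The mean difference reaches 6.49 in size in Reg3b and 3.12 in Lgr5.

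Genes of the crypt base were higher in WENRC in both animals. Of 19 stem cell genes, 14 were higher in both mice, against 36.4% of all tested genes, 8 differed alike and 2 passed the test (Lgr5 and Msi1). Their median difference was 1.15 in mouse 1 and 1.76 in mouse 2, beside 0.00 and -0.02 over all tested genes. Tnfrsf19, a Wnt-responsive TNF receptor family member, had 6.57 and 6.06 in ENRI and 8.92 and 9.48 in WENRC (limma adjusted p 0.0504). Smoc2, a secreted matrix protein, had 9.49 and 10.63 in ENRI and 12.64 and 12.39 in WENRC. Olfm4, a secreted stem cell glycoprotein, differed by 3.69 in mouse 1 and 1.71 in mouse 2, starting from 5.14 and 7.41 in ENRI, and Rgmb, a BMP co-receptor, by 1.66 and 1.69. Hopx (1.33 and 1.96) and Cdca7 (1.5 and 2.26) also differed alike. Several genes known from the crypt did so in mouse 2 alone or nearly so: Sox9 differed by 0.07 and 2.39, Cd44 by -0.53 and 2.29, Igfbp4 by 0.39 and 2.33 and Slc12a2 by 0.67 and 2.32. Bmi1, a Polycomb subunit, had differences of -0.03 and 0.32.

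Wnt feedback genes gave a similar picture. Of 15 tested, 11 were higher in both mice, 5 differed alike and 2 rose past the test (Lgr5 and Axin2), with medians of 0.58 and 1.57. Lgr5, Ascl2 and Tnfrsf19 are in the stem cell list too, and Lgr5 and Tnfrsf19 are among the 5. The counts of the 2 lists are thus not separate. Nkd1, an intracellular Wnt inhibitor, had 5.25 and 5.41 in ENRI and 8.06 and 7.43 in WENRC (mean difference 2.41, SE 0.28, limma adjusted p 0.0527). Znrf3, the ubiquitin ligase that removes Wnt receptors, differed by 1.13 and 1.78, and its partner Rnf43 by 0.50 and 1.94. Sp5 had differences of 0.00 and -0.46, Lef1 of 0.73 and -0.08, and Myc of 0.08 and 1.84, so that none of these differed alike. Ccnd1 was lower by 0.72 in mouse 1 and higher by 1.57 in mouse 2.

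Ephrin signalling sorts cells along the crypt and villus, with receptors in the crypt and ligands above it. The receptors Ephb2 (1.06 and 1.64) and Ephb3 (0.99 and 1.73) were higher in WENRC in both mice. The ligands Efna1 and Efnb2 went the other way: Efna1 had 11.07 and 12.19 in ENRI and 9.55 and 9.60 in WENRC, and Efnb2 had 12.11 and 12.65 against 10.73 and 10.74. Epha4 differed by -1.17 in mouse 1 and 2.54 in mouse 2. None of the 8 genes of this list passed the limma test (3 higher and 2 lower in the authors' deposited table). Among 11 Notch genes, Lfng, which modifies Notch receptors with sugars, was alone in differing alike (1.11 and 1.42), Dll4 was higher by 0.68 and 0.99, Dll1 was lower by 0.62 and 1.60, and Notch1 was higher by 0.84 and 0.31. The secretory lineage factor Atoh1 was near the bottom of the scale in all 4 libraries, from 3.77 to 4.0. In the EGF family of 11 genes, the receptor Erbb3 (differences of -1.44 and -2.19) and the feedback inhibitor Errfi1 (differences of -1.19 and -1.55) differed alike. Hbegf (-1.15 and -0.88) and Erbb2 (-0.56 and -1.01) were lower in both mice, while the receptor Egfr was lower by 1.09 in mouse 1 and higher by 0.85 in mouse 2. Of 12 BMP and hedgehog genes only the villus ligand Bmp2 differed alike, from 8.82 and 8.16 in ENRI to 6.90 and 7.04 in WENRC, against its list's median of 0.19. Bmp7 (0.92 and 0.93) and the hedgehog receptor Ptch1 (0.56 and 0.76) were higher in both mice, and Smad7 was lower (-0.64 and -0.57). No gene of the Notch, EGF or BMP lists passed the test, which 0.735% of all tested genes passed. The shares that differed alike were 9.09% (Notch), 18.2% (EGF) and 8.33% (BMP and hedgehog), against 5.51% of all tested genes. Lists this small cannot tell such shares apart.

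Proliferation genes were higher in WENRC by modest amounts. In the list of 25 cell cycle and replication genes, 23 were higher in both mice and none lower in both, with medians of 0.74 and 1.17. Differences of at least 1 in both mice were seen for 5 of them: Top2a, the topoisomerase of dividing cells, with 9.40 and 8.49 in ENRI and 10.76 and 10.53 in WENRC, the checkpoint kinase Bub1 (1.13 and 1.78), the mitotic kinase Cdk1 (1.09 and 1.33), its cyclin Ccnb1 (1.08 and 1.45) and the ribonucleotide reductase subunit Rrm2 (1.06 and 1.53). None passed the limma test, while 13 of the 25 are called higher in the authors' deposited table. Pcna had differences of 0.53 and -0.41. Gene families picked by symbol after the values were seen are given beside them. Of 66 replication histone genes, 58 were higher in both mice and 6 differed alike, among them Hist1h1b (1.12 and 1.60). Of 38 kinesins 6 were higher by at least 1 in both mice and none lower, including Kif11, which pushes spindle poles apart (1.25 and 1.44). Of 20 Cenp genes Cenpa (1.37 in each mouse) and Cenpe (1.13 and 1.75), both of the kinetochore, differed alike. Histone and ribosomal protein genes have near-identical copies between which reads could be split.

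Genes for making ribosomes were higher by less. In 13 of 15 ribosome biogenesis genes WENRC was higher in both mice, with medians of 0.52 and 1.06. None reached 1 in both, which 1.28% of all tested genes did. Polr1a, the largest subunit of RNA polymerase I, had 8.91 and 8.33 in ENRI and 9.83 and 9.73 in WENRC. Polr1b (0.84 and 1.06), Nolc1 (0.66 and 1.59) and the nucleolar methyltransferase Fbl (0.65 and 0.68) followed, while Dkc1 (-0.37 and -0.94) and Pes1 (-0.57 and -1.80) were lower in both mice. Of 93 ribosomal protein genes, a family picked by symbol after the values were seen, 79 were higher in both mice (84.9%, against 36.4% of all tested genes). Rps19 (1.0 and 1.93) and Rplp1 (1.04 and 1.2) were higher alike. That share of 2.15% was near the 1.28% of all tested genes.

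A group of genes for amino acid supply stood among the genes higher in WENRC. Cells short of amino acids activate the factor ATF4, which binds short composite elements and switches on amino acid carriers, serine, glycine and asparagine synthesis and tRNA charging enzymes. The list of 31 such genes was put together after the values were seen, so its counts describe it and support nothing. In it, 27 genes were higher in both mice, 21 differed alike and 5 rose past the test, with medians of 1.41 and 1.77. The 5 were Stc2, Chac1 and the carriers Slc7a5, Slc1a5 and Slc1a4. Slc7a5, which exchanges glutamine for leucine, had 8.72 and 8.69 in ENRI and 10.85 and 10.89 in WENRC. Slc1a5, a glutamine carrier, had 8.53 and 8.30 against 10.47 and 10.52, and Slc1a4 had 8.85 and 8.48 against 10.70 and 10.74. Within a culture these 3 genes differed between mice by far less than between cultures. Choosing genes past the test makes this likely, so it adds no support.

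The enzymes that make serine from glucose, Phgdh and Psat1, had differences of 1.41 and 2.92 and of 1.92 and 2.91. Asns, asparagine synthetase, had 7.97 and 7.52 in ENRI and 9.63 and 9.57 in WENRC (limma adjusted p 0.0531). The mitochondrial folate enzymes Shmt2 (1.70 and 1.63), Aldh1l2 (2.04 and 1.59) and Mthfd1l (1.40 and 1.86) differed alike, and so did the cystine carrier Slc7a11, by 1.21 and 3.84. Transcription of Atf4 itself had differences of 0.17 and -0.51, and that of Ddit3 of 0.16 and -0.54. The factor is known to be controlled at translation, which GRO-seq does not see. Whether ATF4 had a part in these differences was not tested. Of 20 tested cytosolic aminoacyl-tRNA synthetases, also listed after the values were seen, 18 were higher in both mice and 3 differed alike: Cars (1.52 and 1.48), Iars (1.15 and 1.62) and Lars (1.11 and 1.33).

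**Figure D3:**
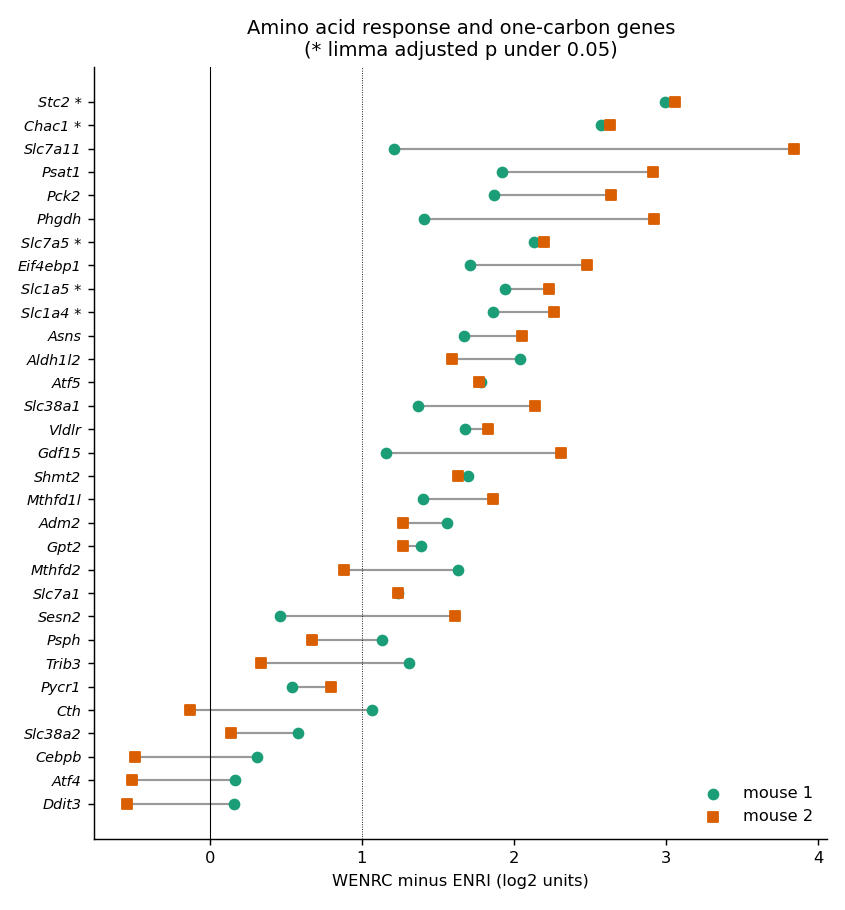
WENRC minus ENRI (log2 units, horizontal axis) in mouse 1 (green circles) and mouse 2 (orange squares) for the 31 genes of amino acid response and one-carbon supply, a list chosen after the values were seen. Most genes lie to the right of 1 in both mice, Stc2 and Chac1 at the top with nearly equal values, and Cebpb, Atf4 and Ddit3 at the bottom straddle 0.

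The promoters of 2 genes of this group are shown for the letters of the ATF4-type element, TGATGNAA on either strand, which are in capitals. Both are the 250 bases before the start of the gene on its own strand, from RefSeq on GRCm38.p6, at chr2:119350992-119351241 (plus strand) for Chac1 and chr6:7693210-7693459 (minus strand) for Asns.
Chac1: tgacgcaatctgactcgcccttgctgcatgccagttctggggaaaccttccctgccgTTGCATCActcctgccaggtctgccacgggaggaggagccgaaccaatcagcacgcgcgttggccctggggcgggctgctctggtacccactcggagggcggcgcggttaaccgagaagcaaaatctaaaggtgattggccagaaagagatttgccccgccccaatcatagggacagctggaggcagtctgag
Asns: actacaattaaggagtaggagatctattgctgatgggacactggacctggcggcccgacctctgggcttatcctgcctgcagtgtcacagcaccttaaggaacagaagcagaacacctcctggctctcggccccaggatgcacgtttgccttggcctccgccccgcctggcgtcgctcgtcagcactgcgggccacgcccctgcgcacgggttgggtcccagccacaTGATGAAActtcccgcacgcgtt
The match begins 193 bases before the start in Chac1 and 23 bases before it in Asns. Matches are letters in a window and not bound sites. The motif stood in 2.08% of the 10065 tested genes with a single window in the RefSeq table, in 6 of 123 (4.88%) that were higher alike, namely Asns, Chac1, Ifitm3, Kif2c, Pck2 and Slc7a11, and in 10 of 417 (2.4%) that were lower alike.

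The villus side of the comparison was wider. Brush border hydrolases, the enzymes that finish digestion at the cell surface, were lower in both mice for 16 of 17 genes, against 38.2% of all tested genes. Their median differences were -1.88 and -3.21, 12 differed alike and 3 fell past the test. The 3 were the peptidases Mme, Ggt1 and Mep1b. Mme, or neprilysin, had 12.03 and 12.86 in ENRI and 8.0 and 7.0 in WENRC. Ggt1, which splits glutathione, had 9.07 and 10.35 against 5.38 and 5.12, a mean difference of -4.46. Mep1b, a meprin subunit, had 11.42 and 11.92 against 9.14 and 8.71. Sis, the sucrase-isomaltase, stayed high in WENRC in spite of its difference, with 14.52 and 15.45 in ENRI and 12.11 and 10.66 in WENRC. Enpep (-2.96 and -4.84), Treh (-2.49 and -4.23) and Alpi, the enterocyte alkaline phosphatase (-1.88 and -3.75), differed alike without passing the test. Lactase, Lct, had differences of only -0.18 and -0.55, and Naaladl1 was higher in both mice (0.51 and 0.34).

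Fat absorption was the list with most tested falls. Of 20 genes 19 were lower in both mice, 16 differed alike and 6 fell past the test: the apolipoproteins Apoa1, Apoa4, Apob, Apoc2 and Apoc3 and the fatty acid receptor Cd36. The medians were -1.82 and -3.45. Apoa4, a chylomicron protein, had 13.16 and 13.31 in ENRI and 8.91 and 7.54 in WENRC. Apob, the backbone of the chylomicron, had 13.92 and 13.84 against 11.46 and 10.69 (mean difference -2.80, SE 0.30, limma adjusted p 0.05 when rounded). Apoc3 had 8.32 in both ENRI libraries and 5.40 and 4.62 in WENRC, and Cd36 had 7.41 and 7.90 against 4.53 and 5.60. Apoc2 (-2.97 and -4.36) overlaps the read-through gene Apoc4-apoc2. The cytosolic fatty acid carriers Fabp1 (-2.03 and -4.49) and Fabp2 (-3.30 and -5.33) and Creb3l3 (-2.81 and -4.83), a factor that drives apolipoprotein genes, differed alike. Scarb1, the lipoprotein receptor, was the exception and was higher in both mice, by 0.24 and 1.48.

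Retinoid genes were lower too, with 7 of 9 lower in both mice, 5 differing alike and 1, Aldh1a1, past the test. Aldh1a1, which makes retinoic acid, had 11.54 and 12.64 in ENRI and 7.43 and 7.54 in WENRC. Rbp2, the enterocyte's retinol carrier, differed by -3.20 in mouse 1 and -5.99 in mouse 2. Its mean of -4.60 was the same as in Aldh1a1, but its SE was 0.68 against 0.30 and its limma adjusted p 0.0614. Adh1 (-2.47 and -4.51) and the retinol dehydrogenase Rdh7 (-2.69 and -4.10) differed alike.

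Nutrient transporters were lower as well. Of 17, 14 were lower in both mice, none higher in both, 11 differed alike and 5 fell past the test, with medians of -1.78 and -3.18. The peptide carrier Slc15a1 had 10.12 and 10.81 in ENRI and 6.27 and 5.99 in WENRC (mean difference -4.34, SE 0.30, limma adjusted p 0.036). Slc5a4b had 9.78 and 11.32 against 5.55 and 6.14, and its close relative Slc5a4a had 6.49 and 7.16 against 4.0 and 5.02. The inositol carrier Slc5a11 fell by 3.70, and Slc6a20a was described above. The main glucose carriers did not pass the test: Slc5a1, the sodium-glucose transporter, differed by -1.78 and -3.33, Slc2a2 by -1.82 and -3.55 and the fructose carrier Slc2a5 by -1.90 and -3.95. Slc28a2, a nucleoside carrier of the villus tip, was lower by 1.77 in mouse 1 and higher by 0.89 in mouse 2. Over all 319 tested solute carrier genes, a family counted after the values were seen, 47 were lower alike and 8 higher alike. The 8 were Slc1a3, Slc1a4, Slc1a5, Slc7a1, Slc7a5, Slc7a11, Slc29a1 and Slc38a1, all amino acid carriers but the nucleoside carrier Slc29a1.

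HNF4 factors of the intestine and liver can read the letters CAAAGTCCA or CAAAGGTCA. Promoters of 3 genes that were lower alike are shown with these letters, on either strand, in capitals. They are again the 250 bases before the start from RefSeq on GRCm38.p6, at chr7:123214616-123214865 (plus strand) for Slc5a11, chr9:98490287-98490536 (plus strand) for Rbp2 and chr1:87101607-87101856 (minus strand) for Alpi.
Slc5a11: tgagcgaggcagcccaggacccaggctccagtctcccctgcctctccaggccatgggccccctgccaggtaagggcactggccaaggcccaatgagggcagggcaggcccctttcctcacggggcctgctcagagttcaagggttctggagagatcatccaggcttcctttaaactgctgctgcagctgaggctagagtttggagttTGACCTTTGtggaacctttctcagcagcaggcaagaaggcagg
Rbp2: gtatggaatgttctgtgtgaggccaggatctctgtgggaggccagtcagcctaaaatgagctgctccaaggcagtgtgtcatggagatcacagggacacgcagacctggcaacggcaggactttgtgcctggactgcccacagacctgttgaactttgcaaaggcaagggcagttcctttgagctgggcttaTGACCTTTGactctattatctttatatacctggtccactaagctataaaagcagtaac
Alpi: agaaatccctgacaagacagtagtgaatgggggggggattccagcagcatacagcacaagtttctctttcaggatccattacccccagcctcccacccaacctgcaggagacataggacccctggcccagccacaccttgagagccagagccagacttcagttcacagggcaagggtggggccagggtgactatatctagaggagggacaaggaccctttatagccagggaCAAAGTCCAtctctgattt
The matches begin 43, 58 and 19 bases before the start. These letters stood in 19 of 417 windows of genes lower alike (4.56%), in 0 of 123 of genes higher alike and in 0.815% of the 10065 windows. Besides the 3 printed, the 19 include Treh, Slc3a1, Slc26a3, Btnl2 and 6 P450 genes of the Cyp2c and Cyp3a families, whose promoters are related by descent. Of the factors themselves, Hnf4g was lower in WENRC in both mice (12.85 and 13.14 in ENRI, 11.54 and 11.08 in WENRC, limma adjusted p 0.0762) and Hnf4a had differences of -0.12 and -0.83. Matches are letters and not bound sites, and whether either factor had a part in these differences was not tested.

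Other letters were searched in the same windows. The letters CTTTGAT or CTTTGAA, searched on both strands as a Wnt-type element, stood in 15 of 123 windows of genes higher alike (12.2%). They stood in 7.67% of windows of genes lower alike and in 5.96% of all. CCAAT on both strands stood in 47.2%, 38.4% and 36.4%, and GGGCGG on both strands in 59.3%, 41.2% and 54.9%. TATAAA on the gene's strand stood in 4.07%, 10.6% and 4.6%. The median number of CpG in the window was 14 in genes higher alike, 6 in genes lower alike and 14 in all. No test was made of these shares, and gene copies within families are not independent. The 15 genes with CTTTGAT or CTTTGAA include Bub1b, Cdk1, Ckap2l and Kif14. Axin2, Lgr5, Nkd1, Tnfrsf19 and Znrf3 are not among them, so the share does not describe the Wnt feedback genes above.

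Drug and bile acid metabolism was lower in both mice for all 21 genes of its list, with 13 differing alike, 19 called lower in the authors' deposited table and 1 past the limma test. Cyp3a13, a P450 of the gut, had 12.90 and 13.15 in ENRI and 10.16 and 9.85 in WENRC (mean difference -3.02, SE 0.26, limma adjusted p 0.0447). Cyp3a11 (-2.64 and -4.82), Cyp2b10 (-2.32 and -3.81) and the bile acid exporter subunit Slc51b (-2.20 and -3.35) differed alike. Over all 71 tested P450 genes, counted by symbol after the values were seen, 29 were lower alike, 10 of them past the test, and 1, Cyp27b1, which activates vitamin D, was higher alike (1.22 and 1.25). Members of the Cyp2, Cyp3, Ces and Gsta families are close copies, and reads could be shared between them.

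Energy metabolism differed less. Of 19 fatty acid oxidation genes 17 were lower in both mice, 8 differed alike and none passed the test, with medians of -0.68 and -1.46. Ppara, the fatty acid sensing receptor, had 10.62 and 11.70 in ENRI and 8.91 and 8.40 in WENRC. Acaa1b (-1.50 and -3.64) and Pdk4 (-2.44 and -1.34) also differed alike. Of 17 cholesterol synthesis genes, 6 were higher in both mice, 4 were lower in both and 7 had opposite signs, with medians of 0.33 and -0.37. None differed alike, against 5.51% of all tested genes, which in a list this small says little. Sqle was higher in both mice by 0.56 and 0.47, and Insig1 (-0.45 and -1.74) and Sc5d (-0.45 and -1.06) were lower. Of 10 iron, calcium and zinc genes the ferroxidase Heph alone differed alike (-1.17 and -1.70), a share of 10% against 5.51% of all tested genes. Slc30a10 (-0.76 and -2.01) and Atp2b1 (-0.75 and -0.98) were lower in both mice, and the iron reductase Cybrd1 was higher in both (0.74 and 1.70).

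The brush border skeleton was lower in WENRC for 17 of 19 genes in both mice, with medians of -0.86 and -1.80, 8 differing alike and Scin past the test. Cobl, an actin nucleator of the microvillus, had 13.46 and 13.82 in ENRI and 11.60 and 11.39 in WENRC. The scaffold Slc9a3r1 (-1.53 and -2.34) and Eps8l3 (-1.47 and -2.40) differed alike, and the bundling protein Vil1 was lower by 0.53 and 1.49. Of 10 villus tip genes, Creb3l3 and Klf4 differed alike, Fos (-0.80 and -1.02) and Junb (-0.33 and -0.38) were lower in both mice, and Ada (-1.27 and 0.29) and Nt5e (-0.36 and 0.83) had opposite signs in the 2 mice. Of 19 transcription factors of the intestine none passed the test, 11 were lower in both mice (57.9%, against 38.2% of all tested genes) and 3 were lower alike (15.8%, against 4.23%), namely Hnf4g, Klf4 (-1.34 and -1.72) and Maf (-1.45 and -1.44), and none was higher alike. Gata5 was lower by 0.68 and 0.53, and Cdx2 had differences of 0.33 and 0.09. Among 10 immediate early and heat shock genes none differed alike, against 5.51% of all tested genes. Dusp1 (-0.85 and -0.88) and Fosb (-0.25 and -0.99) were lower in both mice. Of 4 tested MHC class II genes Cd74 was higher in both mice (0.93 and 0.75) and Ciita nearly level (0.07 and 0.26).

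**Figure D4:**
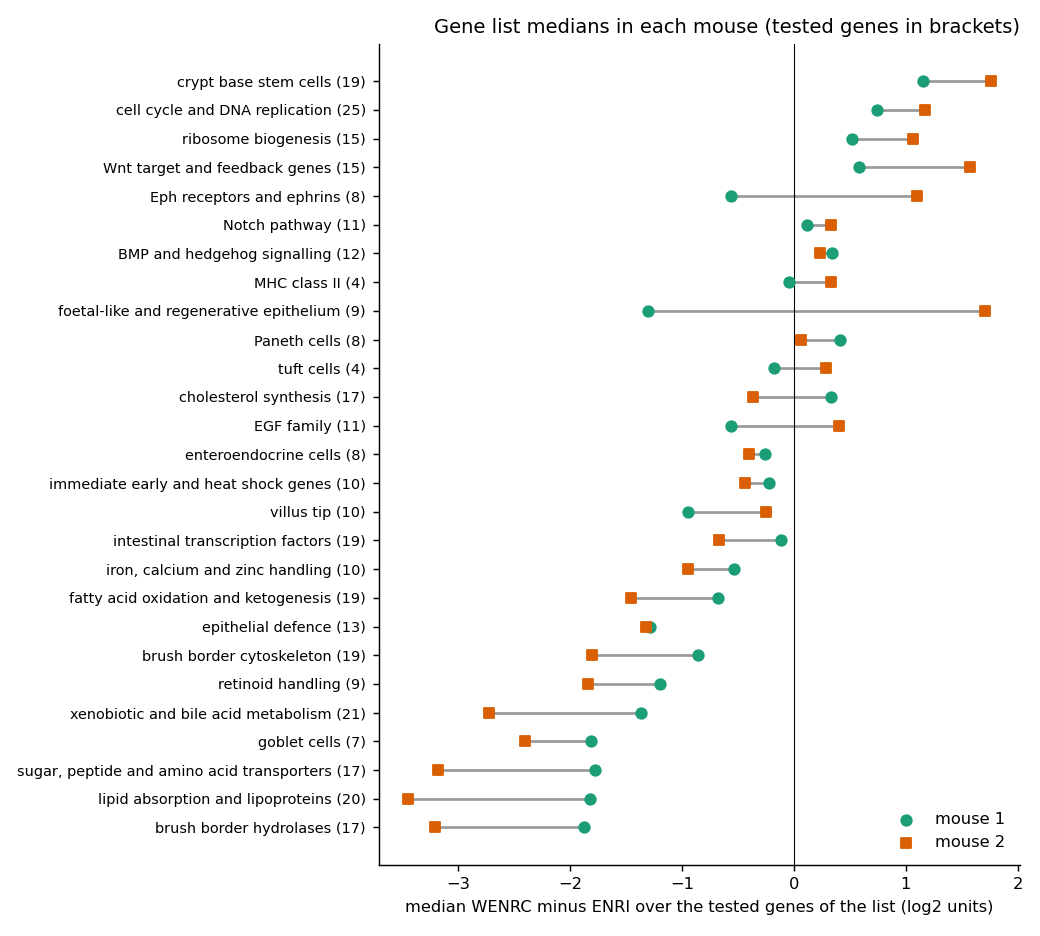
Median WENRC minus ENRI (log2 units, horizontal axis) over the tested genes of each list, in mouse 1 (green circles) and mouse 2 (orange squares), with the number of tested genes in brackets. Lists of the villus lie left of 0 in both mice. The stem cell, Wnt, cell cycle and ribosome biogenesis lists lie right of 0 in both. Among lists with opposite signs are the Eph list (-0.56 in mouse 1 and 1.1 in mouse 2) and the EGF list (-0.56 and 0.4). The foetal-like list lies at -1.30 in mouse 1 and 1.71 in mouse 2.

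Goblet cell genes were lower in WENRC together with the enterocyte genes. Of 7 tested, 6 were lower in both mice, 5 differed alike and 3 fell past the test, with medians of -1.81 and -2.40. Muc2, the gel-forming mucin, had 10.86 and 11.00 in ENRI and 7.44 and 7.0 in WENRC (mean difference -3.71, SE 0.24, limma adjusted p 0.036). Zg16, a lectin of the mucus, had 8.80 and 8.18 against 4.05 and 4.22, and Clca1, a mucus-processing protease, had 10.80 and 10.03 against 8.0 and 7.07. Fcgbp differed by -1.81 and -2.40, while Agr2 (-0.50 and -0.48) and the goblet factor Spdef (0.36 and -0.28) differed by less than 1. Summed over the list the level was 14800 and 10300 in ENRI and 3750 and 1850 in WENRC.

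Epithelial defence was led by the Reg lectins. The list of 13 tested genes had 9 lower in both mice, 7 lower alike and 4 past the test, all Reg genes. Reg3a had 6.58 and 7.14 in ENRI and 3.35 and 3.97 in WENRC, Reg3g had 7.2 and 6.97 against 4.08 and 4.55, and Reg1 had 11.15 and 11.71 against 6.91 and 5.40. Reg3d, in no list, fell by 3.79 as well. The 3 Reg3 genes of the list reached values between 3.26 and 4.55 in WENRC, close to the bottom of the scale, where differences are understated. Pla2g2a, a phospholipase of Paneth cells, was higher in both mice (1.24 and 0.88), but it overlaps Pla2g5, which rose past the test.

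Markers of the other cell types did not differ alike. None of 8 Paneth, 8 enteroendocrine, 4 tuft or 6 M cell genes tested differed by at least 1 in both mice in the same direction. None passed the test. Over all tested genes 5.51% differed alike and 0.735% passed, so none in lists this small says little. Gp2 and Sox8 of the M cell list and Pax4 and Isl1 of the enteroendocrine list were not tested. Neither were Gfi1b, Il25, Alox5ap and Sh2d6 of the tuft list. Their summed levels in ENRI of mouse 1 and mouse 2 and in WENRC of mouse 1 and mouse 2 were 808, 1320, 950 and 1270 for Paneth genes, 636, 1120, 539 and 887 for enteroendocrine genes, 254, 276, 246 and 355 for tuft genes, and 1650, 938, 1780 and 1750 for M cell genes. Mmp7 of Paneth cells was higher in both mice (0.92 and 1.06), as were Marcksl1 (0.49 and 1.42), Tnfrsf11a, the receptor for RANKL (0.49 and 0.84), Ccl9 (0.12 and 0.81) and Spib (0.75 and 0.12) of the M cell list and Pou2f3 of tuft cells (0.25 and 0.92). Sct (-0.49 and -0.92), Gip (-0.31 and -1.04), Chgb (-0.31 and -0.26), Dclk1 (-0.52 and -0.22) and Ptgs1 (-0.34 and -0.17) were lower in both, and Neurod1 was higher (0.39 and 0.28). Cells from outside the epithelium left little signal: Col1a1, Col1a2, Col3a1, Pdgfra, Des, Vim, Cd3e, Lyz2, Cdh5 and Kdr were under the level required for testing. The summed levels of the fibroblast, leukocyte and endothelium lists lay between 177 and 424 in every library. Of their tested genes, Acta2 (0.41 and 0.03), Cd79a (0.26 and 0.62) and Vwf (0.30 and 0.89) were higher and Ptprc (-0.27 and -0.91) and Tek (-0.89 and -0.35) lower in both mice. The sex-linked genes followed the mouse and not the culture, and read as male in mouse 1 and female in mouse 2. Ddx3y had 8.49 in ENRI and 8.29 in WENRC of mouse 1 and 3.46 and 3.28 in mouse 2, and Xist, which overlaps Tsix, had 4.52, 5.42, 10.90 and 11.60.

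Some genes that differ alike lay side by side. When genes of the same direction within 100 kb of each other are joined, 161 of the 907 (17.8%) fell into 45 runs of at least 3 genes, 40 lower and 5 higher. Coordinates are mm9. On chromosome 6, between 78320879 and 78418868, all 5 tested genes, Reg3b, Reg3d, Reg3a, Reg1 and Reg3g, were lower alike. On chromosome 9, between 46036713 and 46051541, so were Apoa1, Apoc3 and Apoa4. The longest run, on chromosome 3 from 137752819 to 138093856, held Mttp and the alcohol dehydrogenase genes Adh7, Adh1, Adh6a, Adh6-ps1 and Adh4 with 0610031O16Rik. Runs of 5 glutathione transferase genes on chromosome 9 and 5 butyrophilin-like genes on chromosome 17 were also lower alike. The Clca genes on chromosome 3 split: Clca3a1, Clca3a2 and Clca3b, between 144392641 and 144512266, were higher in WENRC, with Clca3a2 past the test (7.06 and 7.30 in ENRI, 8.97 and 9.23 in WENRC). Their neighbours Clca4b, Clca4a and Clca1, between 144573885 and 144695740, were lower. Overlapping transcription and shared reads between copies can join neighbours, and the strand handling of the counts is not given in the sources used here.

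H3K27me3, the mark of Polycomb repression, was deposited for WENRC (1 library) and for RANKL (2 libraries pooled by the authors), with no ENRI library, so it cannot be set against the same contrast. Regions with more of the mark in WENRC than in RANKL lay within 5 kb of the start of 13 of 211 genes higher alike (6.16%), 43 of 696 lower alike (6.18%) and 4.92% of all tested genes. Regions with more in RANKL lay near 50 genes higher alike (23.7%), 113 lower alike (16.2%) and 2958 of all 16460 tested. Of the 103 genes that fell past the test, 10 (9.71%) had a WENRC-higher region there and 23 (22.3%) a RANKL-higher one, against 4.92% and 18% of all tested genes. Slc6a20a, Mme, Apoa4 and Slc28a1 were among the former, with the authors' ratios of 8.94, 4.76, 5.7 and, for the 2 regions of Slc28a1, 5.4 and 3.15. Scin, Muc2, Slc15a1, Slc6a3 and Slc47a1 were among the latter, with the authors' ratios between 2.1 (Slc6a3) and 3.58 (Slc47a1). Of the 18 genes that rose past the test, 0 had a WENRC-higher region and 7 (38.9%) a RANKL-higher one. Among these 7, Lgr5 had a RANKL-higher region that spanned its start, with its centre 583 bases past it and an authors' ratio of 3.27. With 1 WENRC library and the RANKL libraries pooled, these ratios have no replicate check.

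The mice did not agree on every programme. Differences of at least 1 in each mouse with opposite signs were seen for 57 tested genes (0.346%), and all 57 were lower in WENRC in mouse 1 and higher in mouse 2. The 5 with the largest opposite differences were Mslnl, Msln, Ctgf, Enah and Samd5. Msln, the surface protein mesothelin, had 10.02 in ENRI of mouse 1 and 5.1 in ENRI of mouse 2, with 7.66 and 7.53 in WENRC between them. The related gene Mslnl had 10.01 and 5.51 in ENRI and 7.51 and 8.01 in WENRC. Ctgf, a matrix protein switched on by YAP, had 9.74 and 5.42 in ENRI against 7.06 and 7.56 in WENRC. In Enah, an actin filament elongator, the ENRI values were 9.15 and 6.42 and the WENRC values 7.13 and 8.7, and in Samd5 they were 9.85 and 5.17 and 8.13 and 7.61. The WENRC libraries thus lay within 1.57 of each other in these genes while the ENRI libraries lay at the 2 ends.

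Genes of the foetal-like epithelium, which is known from injured and regenerating gut, followed the same pattern. Of 9 tested genes 8 had opposite signs in the 2 mice, with medians of -1.30 and 1.71, and none was called by limma. Clu, a marker of stem cells that appear after injury, had 12.08 and 7.08 in ENRI and 8.98 and 8.52 in WENRC. Anxa1 had 10.35 and 5.88 against 8.63 and 9.49, Ly6a 8.25 and 4.07 against 7.01 and 7.09, and Il1rn 9.25 and 5.48 against 7.95 and 7.86. Il33, an alarm cytokine, was the exception and was lower in both mice (-1.41 and -0.80). A wider list of 18 YAP target and injury genes, put together after the values were seen, had 16 with opposite signs. The ENRI library of mouse 1, in which these genes were high, also had the lower summed level of enterocyte markers (62600 against 112000 in mouse 2), and its goblet marker sum was the higher (14800 against 10300). With 1 library per culture and mouse, the difference between the mice was not tested. The part of animal, sex, date or culture in it cannot be told apart.

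**Figure D5:**
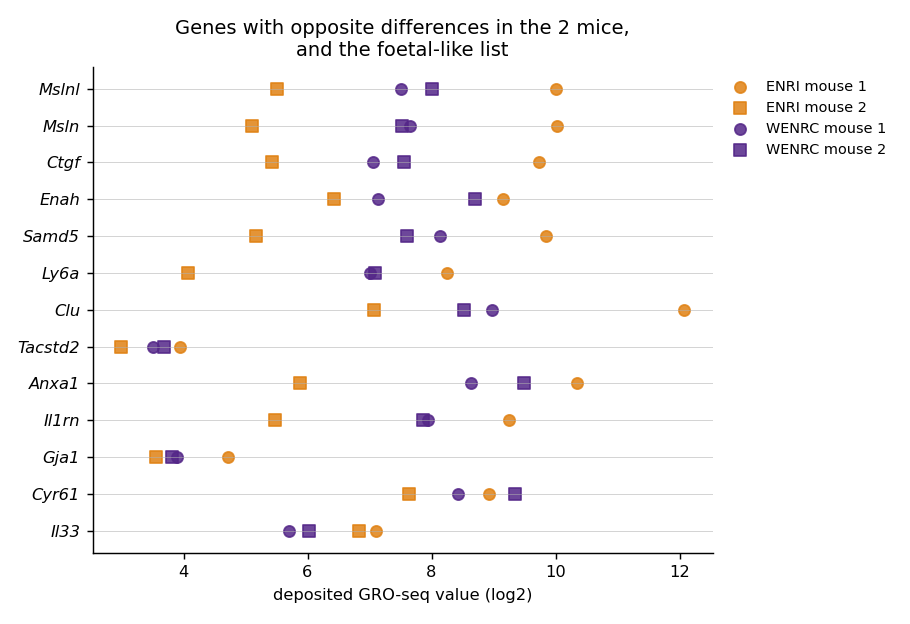
Deposited GRO-seq value (log2, horizontal axis) in each of the 4 libraries for the 5 genes with the largest opposite differences and the 8 further tested genes of the foetal-like list (Ctgf is in both). In Msln, Clu, Ly6a and Anxa1 ENRI of mouse 1 (orange circle) is the highest and ENRI of mouse 2 (orange square) the lowest, with both WENRC libraries between; Il33 is the exception, with both ENRI values above WENRC.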

How the data were processed

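GRO-seq of the 2 WENRC and 2 ENRI libraries was used. HOMER's analyzeRepeats.pl (reads per whole RefSeq gene, mm9) and getDiffExpression.pl made the table, per the file headers; the submitters' processing notes name Bowtie2 2.3.4.1, HOMER, DESeq2 and mm9, and the read filters and strand handling are not given in the sources used here. The deposited values are log2, scaled between libraries by the authors, and resemble DESeq2's regularized log, as inferred from their spread; no counts were used and depth is unknown. The authors' deposited log2 fold changes, p-values and adjusted p-values were turned to WENRC minus ENRI. Per the file headers, H3K27me3 regions were called by the authors with HOMER; the fold ratio of tags is theirs. Rows at 0 in every library (2131 of 24505) were dropped, and 26 symbols turned into dates were restored. RefSeq identifiers of 24288 rows matched the GRCm38 table.

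Genes with at least log2 of 10 in at least 2 of the 4 libraries were tested with limma 3.58.1 (R 4.3.3) on the deposited values, with culture and mouse as terms and a variance trend, and called at an adjusted p under 0.05 (Benjamini-Hochberg). The fit was tested on simulated data. The labels give the mouse of each library; deviations from the culture means of same-numbered libraries correlated at 0.414 across genes, and sex-linked genes separated the mice. Of the tested genes 3934 overlap another listed gene. The members, the 23 programme lists, the 11 marker lists and the tests were chosen with earlier results of these data known, and 3 lists and the gene families were chosen after the values were seen. Named genes are the 12 largest called rises and falls, up to 4 per list (called genes by p, then the largest differences shared by both mice), members opposing their list, the 5 most opposite genes and members of lists or families described beside them. Sums of marker genes are of values taken out of log2. Alternatives were other blocks, libraries, scalings, filters and the authors' test. Some members of the lists are not reported here by name.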

Additional observations from a re-analysis of the deposited data

Results flagged for a closer look

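The difference between the cultures had opposite signs in the 2 mice for 5 genes and 1 list, where the libraries of one animal moved one way and those of the other the opposite way. WENRC minus ENRI was -2.50 in mouse 1 and 2.49 in mouse 2 for Mslnl, -2.36 and 2.43 for Msln, -2.68 and 2.14 for Ctgf, -2.02 and 2.28 for Enah, and -1.73 and 2.45 for Samd5. The median of the foetal-like and regenerative list was -1.30 in mouse 1 and 1.71 in mouse 2. The difference between the mice was not tested, since each mouse has 1 library of each culture. The 5 genes were chosen as the most opposite of all tested genes. All 57 genes with opposite differences of at least 1 had the same order of the mice.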

How the results depend on the processing

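The number of genes called by limma depended on the fit. Against 121 calls, no replicate block gave 0 (4073 with an unadjusted p under 0.05), the 6 libraries with replicate block 3551, the 6 libraries with no block 2444, upper quartile recentring 555, quantile normalization 485, no filter 342, a value of at least log2 of 50 24, no variance trend 24, genes with no overlap and 1 copy 22 and the authors' deposited adjusted p 2076. Leaving out 1 library, together with the block, gave 0 to 4554 calls. All 121 genes kept their call and sign with 6 libraries and the replicate block, under both recentrings, with no filter and in the authors' table. The count of genes that differ alike was 3332 at 0.5 and 162 at 2 in each mouse; the other 5 alternatives kept it between 743 and 907. Of the 34 called genes named by the rule, all lost their call without the block or without either WENRC library, 21 without the variance trend or at log2 of 50, and 19 of 31 among genes with no overlap; none changed sign. Of 34 list medians, 12 took another sign in some alternative, 1 of them among the 17 of at least 0.5 in size, that of the Eph list, with -0.43 without ENRI of mouse 2 and -0.56 in mouse 1 alone. Leaving out 1 library turned the sign of these genes that were not called: Acta2 (-0.14 to 0.58), Chgb (-0.87 to 0.30), Dclk1 (-1.15 to 0.40), Ptprc (-1.26 to 0.08), Ddx3y (-2.71 to 2.33) and Xist (-2.39 to 3.99); for Ddx3y and Xist the libraries left include different mice. Other causes were not tested. With 2 mice, unknown depth and a scale that draws low genes together, small differences of low genes cannot be resolved.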
